A study of Mus musculus with 12 samples.

Results

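The mitochondrial ribosomal proteins were taken as all genes whose symbol starts with Mrpl or Mrps and a number in the expression tables of a mouse denervation study. The rule found 78 genes among 25094 listed in each table, 49 named for the large subunit (Mrpl) and 29 for the small subunit (Mrps). The libraries were made from poly(A) RNA of gastrocnemius, a calf muscle, in male wild-type BALB/c and C57BL/6 mice. The right sciatic nerve had been cut and its ends turned back and sutured to muscle, and the tissue was taken 2 weeks after surgery. The 4 groups were BALB/c right (denervated), BALB/c left (labelled healthy), C57BL/6 right (denervated) and C57BL/6 left (labelled healthy), with 3 libraries each. The protocol also mentions a sham operation, and the labels do not say whether the left legs had one. No label gives the age of the mice, or states that each library is a different animal. The p-values therefore set the difference between legs against the spread among these libraries only, and that spread may be technical.

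The mitochondrial ribosome translates the few messenger RNAs encoded by mitochondrial DNA, all of which specify subunits of the respiratory chain and ATP synthase. Its ribosomal RNAs come from mitochondrial DNA, while its proteins are encoded in the nucleus, made in the cytosol and imported. Some of these proteins have counterparts in bacterial ribosomes and others are found in mitochondria only. Skeletal muscle is rich in mitochondria, and denervated muscle is known to lose fibre mass and oxidative capacity.

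Values are RPKM, reads per kilobase of the listed transcript, relative to the library's read total. They were analysed as deposited and after scaling each library by its median-of-ratios factor, which sets the median gene equal between libraries. Single libraries are called by leg and number, and a call is said to be lost where the adjusted p passed 0.05 when that library was left out. On the log2(RPKM + 0.5) scale the median tested gene was 0.38 higher in right than left legs of BALB/c and 0.52 higher in C57BL/6 as deposited, and 0.02 and 0.02 higher after scaling. Summed RPKM of 10 muscle fibre markers was 59648 to 82534 in the right legs of BALB/c, against 105352 to 143126 in the left legs, and 73576 to 78681 in the right legs of C57BL/6, against 149921 to 162132 in the left legs. Of these 10 markers, 1 was called higher and 3 lower in BALB/c as deposited, and 3 were called higher and 7 lower in C57BL/6, so the sum does not stand for every marker. The markers' part in the shift of the median gene was not tested. The read totals behind the RPKM ran between 18132623 and 19282850 reads. All 78 members passed the filter on low values in both strains, and no member had fewer than 38 reads in a library. The second right library of BALB/c stood apart from the other 2 of its group. Its effect is given for the members' counts and medians and for some named members. Results for subunits, classes of protein, gene lists, promoters, neighbouring genes and the correlation of the strains were not redone without it.

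As deposited, most members were higher in the denervated leg. In BALB/c, 50 of 78 members were called higher and 1 lower (adjusted p under 0.05, limma over all tested genes), beside 42.5% and 7.67% of all tested genes. In C57BL/6, 72 were called higher and 1 lower, beside 63.6% and 8.56% of all tested genes. The median member was 0.59 higher on the log2 scale in BALB/c and 0.65 higher in C57BL/6. Of other genes within the members' range of level, 56.3% were called higher and 8.66% lower in BALB/c. In C57BL/6 these shares were 72.1% and 11.1%. The medians of these genes were 0.60 in BALB/c and 0.66 in C57BL/6, close to those of the members. The right legs lay above the left without overlap for 54 members in BALB/c (48.1% of all tested genes) and 72 in C57BL/6 (66.2%), and below for 1 member in each strain (10.4% and 9.57%).

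After scaling, the members no longer moved as a group. In BALB/c 13 were called higher and 7 lower, beside 21.8% and 19% of all tested genes. In C57BL/6 18 were called higher and 23 lower, beside 28.2% and 26.4%. Both strains thus had a share of called members near or below that of all genes. The median scaled change was 0.08 in BALB/c and -0.03 in C57BL/6. Other genes within the members' range of level had scaled medians of 0.11 and -0.02. Of these genes, 29.2% were called higher and 20.9% lower in BALB/c, and 31.8% and 34.7% in C57BL/6. The legs did not overlap, with right above left, for 21 members in BALB/c (28.6% of all tested genes) and 20 in C57BL/6 (32.9%). They lay apart with right below left for 8 members in BALB/c (26.7%) and 25 in C57BL/6 (30.6%). In C57BL/6, 18 members were called higher as deposited and lower after scaling, among them Mrpl30, Mrpl16, Mrps31 and Mrps25, beside 4.7% of all tested genes. In BALB/c 0 members turned in this way, beside 0% of all tested genes.

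**Figure D1:**
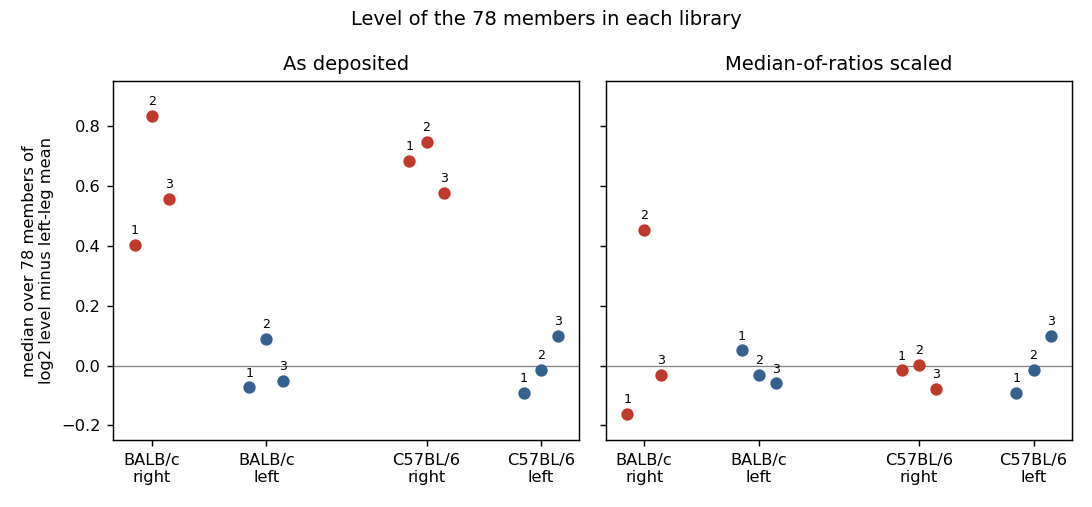
Median over the 78 members of the log2 level minus the left-leg mean of the strain (y axis, log2 units) for each library, numbered by replicate, right legs in red and left legs in blue, as deposited (left panel) and median-of-ratios scaled (right panel). The right libraries of BALB/c numbered 1, 2 and 3 sit at 0.40, 0.83 and 0.56 as deposited and at -0.16, 0.45 and -0.03 after scaling, and the right libraries of C57BL/6 at 0.68, 0.75 and 0.58 as deposited and at -0.02, 0.00 and -0.08 after scaling.

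The second right library of BALB/c held the members at a scaled median of 0.45 above the left-leg mean, against -0.16 and -0.03 in the other right libraries. Without it, 9 members were called higher and 17 lower in BALB/c after scaling, with a median change of -0.13, and 42 higher and 2 lower as deposited, with a median of 0.44. The shares of all tested genes called in that fit were not counted, so these counts cannot be set beside them. The scaled higher calls lost without it were Mrpl23, Mrpl41, Mrps34 and Mrps7. Markers of red blood cells also varied in this strain, at a sum of 399 to 27119 RPKM in the right legs, against 239 to 1848 RPKM in the left legs. Summed macrophage markers were 185 to 299 RPKM in the right legs of BALB/c, against 62.2 to 106 RPKM in the left legs, and 91.1 to 183 RPKM in the right legs of C57BL/6, against 9.68 to 13.1 RPKM in the left legs. Summed markers of fibroblasts and fibro-adipogenic progenitors were 539 to 706 RPKM in the right legs of BALB/c, against 450.3 to 725 RPKM in the left legs, and 227 to 436 RPKM in the right legs of C57BL/6, against 80.4 to 139 RPKM in the left legs. Of these 8 markers, 5 were called higher and 1 lower in BALB/c and 8 were called higher and 0 lower in C57BL/6 as deposited, and 0 were called higher and 1 lower in BALB/c and 5 were called higher and 0 lower in C57BL/6 after scaling. Of 7 endothelial markers, 0 were called higher and 2 lower in BALB/c and 0 were called higher and 3 lower in C57BL/6 as deposited, and 0 were called higher and 7 lower in BALB/c and 0 were called higher and 7 lower in C57BL/6 after scaling. No listed cell type marker was at 0 in every library of a group. Fewer cells of a type and less RNA per cell cannot be told apart in whole muscle, and the part of these cell types in the members' levels was not tested.

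**Figure D2:**
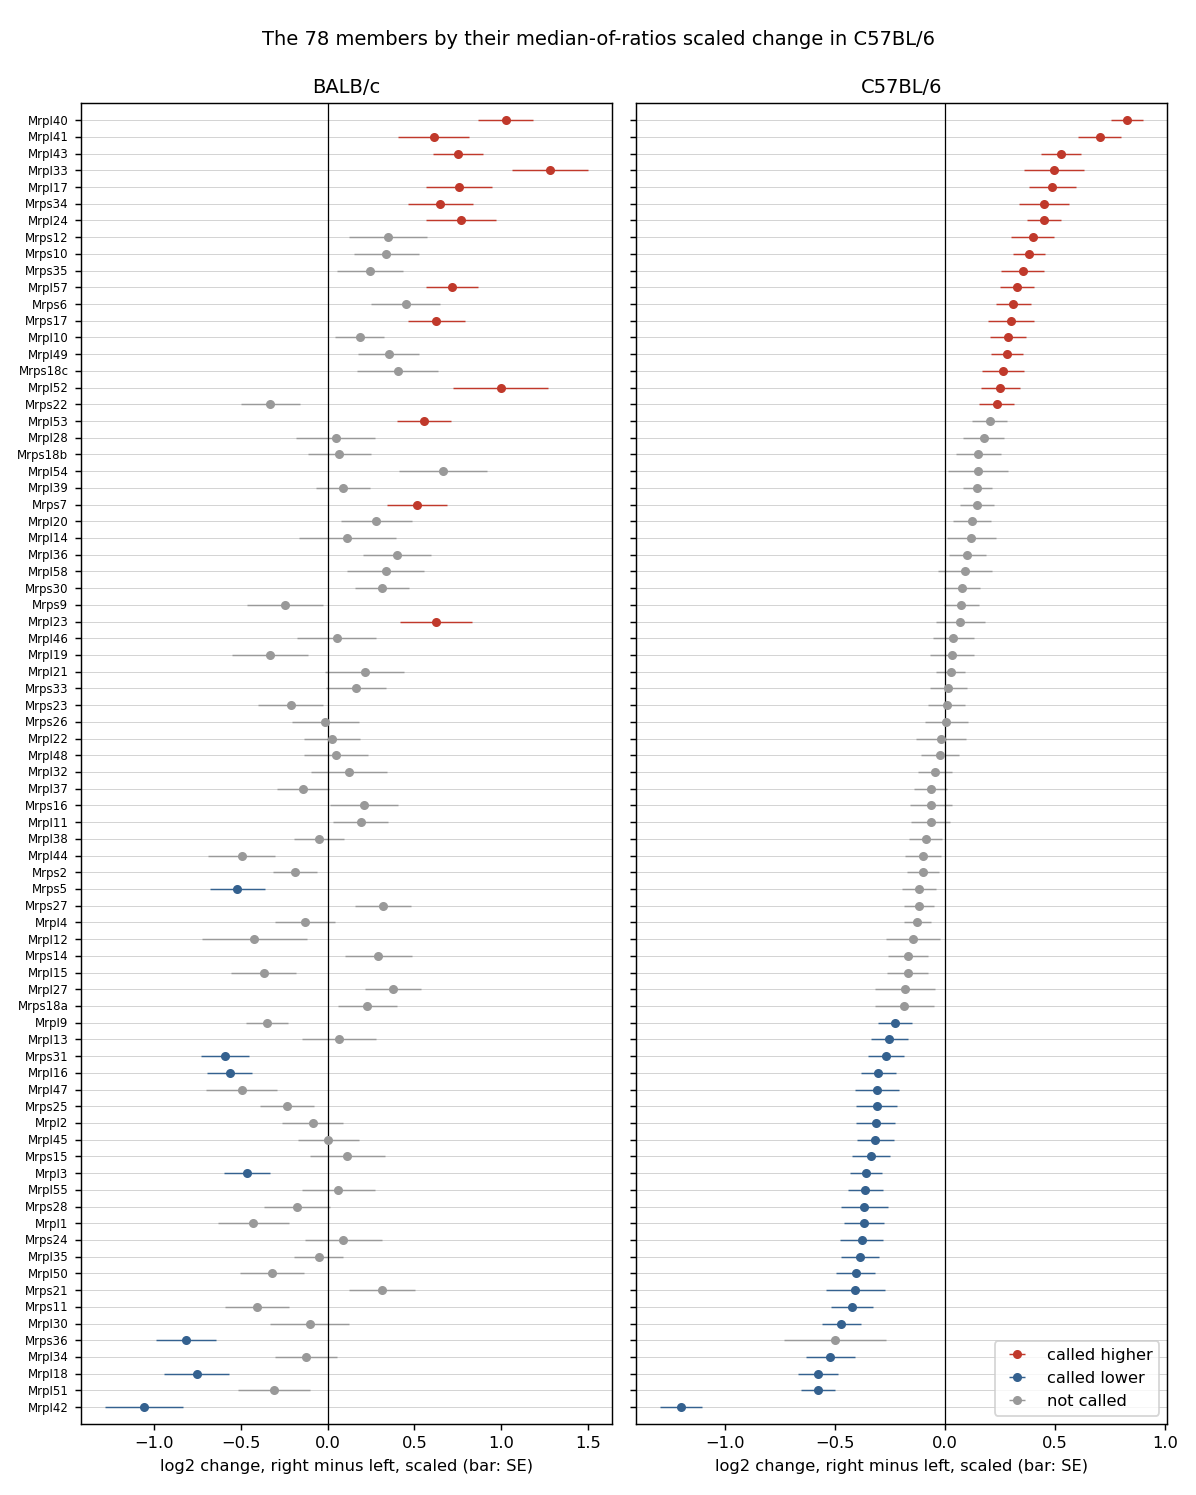
Scaled log2 change of each member, right minus left, with its SE from limma (x axis, log2 units) in BALB/c (left panel) and C57BL/6 (right panel), ordered by the change in C57BL/6 (y axis, gene symbols). Members called higher are red, called lower blue and not called grey, and the ends of the order are Mrpl40 at the top and Mrpl42 at the bottom in C57BL/6.

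The 5 largest scaled rises in each strain belonged to large-subunit proteins. Positions are those listed in the files for the gene's transcript (mm9). Mrpl33 (NM_025796, chromosome 5, 31916324 to 31925017, + strand), the counterpart of a small bacterial large-subunit protein, had 214, 322 and 257 scaled RPKM in the right legs of BALB/c, against 132, 90.6 and 102 scaled RPKM in the left legs. In C57BL/6 it had 226, 164 and 163 scaled RPKM in the right legs, against 122, 128 and 139 scaled RPKM in the left legs. Every right library lay above every left one, most widely in BALB/c. The log2 change was 1.28 ± 0.22 (SE, adjusted p = 0.00322) in BALB/c and 0.49 ± 0.14 (SE, adjusted p = 0.0171) in C57BL/6. The C57BL/6 call was lost without library left 1 or left 2 (changes of 0.45 to 0.48, adjusted p = 0.055 to 0.0595). Mrpl33 was also the third most abundant member in the left legs of C57BL/6.

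Mrpl40 (NM_010922, chromosome 16, 18872111 to 18876730, - strand), a mitochondria-specific protein whose human gene lies in the region deleted in DiGeorge syndrome, had 42.6, 58.2 and 46.2 scaled RPKM in the right legs of BALB/c, against 25.7, 21.6 and 23.7 scaled RPKM in the left legs. The C57BL/6 right legs had 43.4, 42.1 and 40.7 scaled RPKM, against 22.97, 25.2 and 22.4 scaled RPKM in the left legs. The legs were far apart in both strains, and the C57BL/6 libraries of a leg were close to each other. The change was 1.03 ± 0.16 (SE, adjusted p = 0.00195) in BALB/c and 0.83 ± 0.07 (SE, adjusted p = 6.6e-05) in C57BL/6, the largest of the members in C57BL/6 and the second largest in BALB/c.

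Mrpl17 (NM_025301, chromosome 7, 112952296 to 112959601, - strand), a protein of bacterial type, had 9.54, 15.5 and 10.6 scaled RPKM in the right legs of BALB/c, against 7.03, 6.10 and 6.98 scaled RPKM in the left legs. Right legs of C57BL/6 held it at 10.7, 9.17 and 8.90 scaled RPKM, and left legs at 6.85, 5.91 and 7.32 scaled RPKM. Its legs did not overlap in either strain. The change was 0.76 ± 0.19 (SE, adjusted p = 0.0152) in BALB/c and 0.49 ± 0.11 (SE, adjusted p = 0.00636) in C57BL/6. Mrpl52 (NM_026851, chromosome 14, 55045746 to 55048587, + strand), mitochondria-specific, had 93.6, 203 and 114 scaled RPKM in the right legs of BALB/c, against 63.6, 60.02 and 70.7 scaled RPKM in the left legs, a change of 1.00 ± 0.27 (SE, adjusted p = 0.0225). Its C57BL/6 values were 136, 129 and 123 scaled RPKM in right legs and 102, 105 and 119.9 scaled RPKM in left legs, a change of 0.25 ± 0.09 (SE, adjusted p = 0.0406). The legs lay apart in both strains, and the high value in BALB/c was that of the second right library. The BALB/c call was lost without library left 1, left 2 or left 3 (changes of 0.94 to 1.06, adjusted p = 0.0522 to 0.0625), and the C57BL/6 call without library left 1, left 2, right 1, right 2 or right 3 (changes of 0.20 to 0.29, adjusted p = 0.0605 to 0.138).

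Mrpl41 and Mrpl43, both mitochondria-specific large-subunit proteins, also rose in both strains. Mrpl41 had 10.2, 16.6 and 11.98 scaled RPKM in the right legs of BALB/c, against 7.35, 9.92 and 7.30 scaled RPKM in the left legs, a change of 0.61 ± 0.20 (SE, adjusted p = 0.0456). The call was lost without library left 1, left 3, right 2 or right 3 (changes of 0.43 to 0.65, adjusted p = 0.0874 to 0.138). For C57BL/6 the right legs gave 10.9, 12.3 and 10.7 scaled RPKM and the left legs 6.44, 6.28 and 7.55 scaled RPKM, a change of 0.70 ± 0.10 (SE, adjusted p = 6.6e-04). Both comparisons left the legs without overlap. Mrpl43, which overlaps Twnk in the listed annotation, had 55.4, 73.5 and 65.01 scaled RPKM in the right legs of BALB/c, against 36.8, 39.1 and 37.95 scaled RPKM in the left legs. Among C57BL/6 libraries it had 51.98, 49.3 and 45.2 scaled RPKM in right legs, against 31.9, 31.9 and 37.4 scaled RPKM in left legs. Its legs lay apart in both strains, with changes of 0.75 ± 0.15 (SE, adjusted p = 0.00533) in BALB/c and 0.53 ± 0.09 (SE, adjusted p = 0.00202) in C57BL/6. Mrpl24, a protein of bacterial type that overlaps Rrnad1, had 44.8, 74.01 and 51.5 scaled RPKM in the right legs of BALB/c, against 36.6, 29.8 and 30.98 scaled RPKM in the left legs. In C57BL/6 it had 55.7, 49.9 and 48.2 scaled RPKM in the right legs, against 36.04, 37.6 and 38.3 scaled RPKM in the left legs. Right libraries were again all above left ones, with changes of 0.77 ± 0.20 (SE, adjusted p = 0.0186) in BALB/c and 0.45 ± 0.08 (SE, adjusted p = 0.00191) in C57BL/6. The BALB/c call of Mrpl24 was lost without library left 2 or left 3 (changes of 0.71 to 0.74, adjusted p = 0.0542 to 0.0657). Strand was not used in counting, so reads of overlapping genes cannot be told apart. Altogether 10 members were called higher in both strains after scaling, beside 17.2% of the genes tested in both, the remaining ones being Mrpl57, Mrps17 and Mrps34.

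Mrpl42 was the one member called lower in both strains on both scales (5.2% of the genes tested in both strains were called lower in both as deposited), and it was also the most abundant member in the left legs of C57BL/6. This mitochondria-specific large-subunit protein (NM_001359476, chromosome 10, 94943439 to 94964583, - strand) had 168, 231 and 182 RPKM in the right legs of BALB/c, against 297, 278 and 261 RPKM in the left legs as deposited. The C57BL/6 right legs had 218, 217 and 207 RPKM, against 264, 310.2 and 325 RPKM in the left legs. Right legs lay below left legs in both strains, with no overlap. The deposited change was -0.54 ± 0.16 (SE, adjusted p = 0.0266) in BALB/c and -0.48 ± 0.09 (SE, adjusted p = 0.00251) in C57BL/6. After scaling it was -1.06 ± 0.22 (SE, adjusted p = 0.00763) in BALB/c and -1.20 ± 0.09 (SE, adjusted p = 3.8e-05) in C57BL/6. As deposited, the BALB/c call was lost in 5 of 6 fits that left out 1 library, namely without library left 1, left 2, left 3, right 1 or right 3 (changes of -0.58 to -0.44, adjusted p = 0.0557 to 0.0898).

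Mrpl18, a bacterial-type protein of the central protuberance (NM_026310, chromosome 17, 13104221 to 13108957, - strand), overlapped between the legs as deposited and fell after scaling. It had 35.5, 51.7 and 33.3 scaled RPKM in the right legs of BALB/c, against 71.1, 67.2 and 62.6 scaled RPKM in the left legs. Right legs of C57BL/6 held it at 37.2, 41.2 and 37.5 scaled RPKM, and left legs at 51.6, 59.5 and 62.8 scaled RPKM. Scaled right libraries were all below the left ones. The scaled change was -0.76 ± 0.19 (SE, adjusted p = 0.0149) in BALB/c and -0.58 ± 0.09 (SE, adjusted p = 0.00134) in C57BL/6, against deposited changes of -0.24 and 0.14 that were not called. The BALB/c call was lost without library right 3 (a change of -0.63, adjusted p = 0.0626). Mrpl16, which sits by the peptidyl transferase centre, had 16.2, 19.3 and 15.7 scaled RPKM in the right legs of BALB/c, against 24.6, 26.6 and 24.98 scaled RPKM in the left legs. Its C57BL/6 values were 25.5, 26.2 and 25.9 scaled RPKM in right legs and 31.2, 29.8 and 35.2 scaled RPKM in left legs. All its scaled right libraries lay below the left ones. It changed by -0.57 ± 0.13 (SE, adjusted p = 0.0107) in BALB/c and -0.30 ± 0.08 (SE, adjusted p = 0.0136) in C57BL/6 after scaling. As deposited it was called higher in C57BL/6, with a change of 0.41 ± 0.08 (SE, adjusted p = 0.00261). The scaled BALB/c call of Mrpl16 was lost without library right 3 (a change of -0.50, adjusted p = 0.0542). Mrps31, a mitochondria-specific protein of the small subunit, had 14.1, 15.02 and 14.2 scaled RPKM in the right legs of BALB/c, against 24.1, 23.7 and 18.6 scaled RPKM in the left legs. For C57BL/6 the right legs gave 16.1, 17.5 and 17.9 scaled RPKM and the left legs 19.2, 21.2 and 21.9 scaled RPKM. The right legs were lower without overlap in both strains. Mrps31 changed by -0.59 ± 0.14 (SE, adjusted p = 0.0121) and -0.27 ± 0.08 (SE, adjusted p = 0.0258) after scaling in BALB/c and C57BL/6. Its scaled C57BL/6 call was lost without library left 2, left 3, right 1 or right 2 (changes of -0.28 to -0.22, adjusted p = 0.0501 to 0.0795). In C57BL/6 it too was called higher as deposited, by 0.44. Mrpl3 completed the 5 members called lower in both strains after scaling, beside 14.8% of the genes tested in both.

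Mrpl51 and Mrpl34 fell in C57BL/6 after scaling and were not called in BALB/c. Mrpl51, mitochondria-specific, had 36.1, 33.3 and 34.01 scaled RPKM in the right legs of C57BL/6, against 49.5, 49.7 and 55.8 scaled RPKM in the left legs, a change of -0.58 ± 0.08 (SE, adjusted p = 5.2e-04). Among BALB/c libraries it had 22.9, 39.1 and 25.7 scaled RPKM in right legs, against 38.6, 31.5 and 36.5 scaled RPKM in left legs, a change of -0.31 ± 0.21 (SE, adjusted p = 0.269). The BALB/c legs overlapped, and Mrpl51 was called lower in BALB/c without the second right library. Mrpl34, of bacterial type, had 57.3, 85.2 and 65.6 scaled RPKM in the right legs of BALB/c, against 72.5, 82.7 and 69.1 scaled RPKM in the left legs. In C57BL/6 it had 54.01, 53.9 and 48.6 scaled RPKM in the right legs, against 73.6, 65.8 and 87.1 scaled RPKM in the left legs. Only the C57BL/6 legs lay apart. Mrpl34 had a change of -0.12 ± 0.18 (SE, adjusted p = 0.608) in BALB/c and -0.52 ± 0.11 (SE, adjusted p = 0.00531) in C57BL/6. Neither was called on the deposited scale in either strain.

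**Figure D3:**
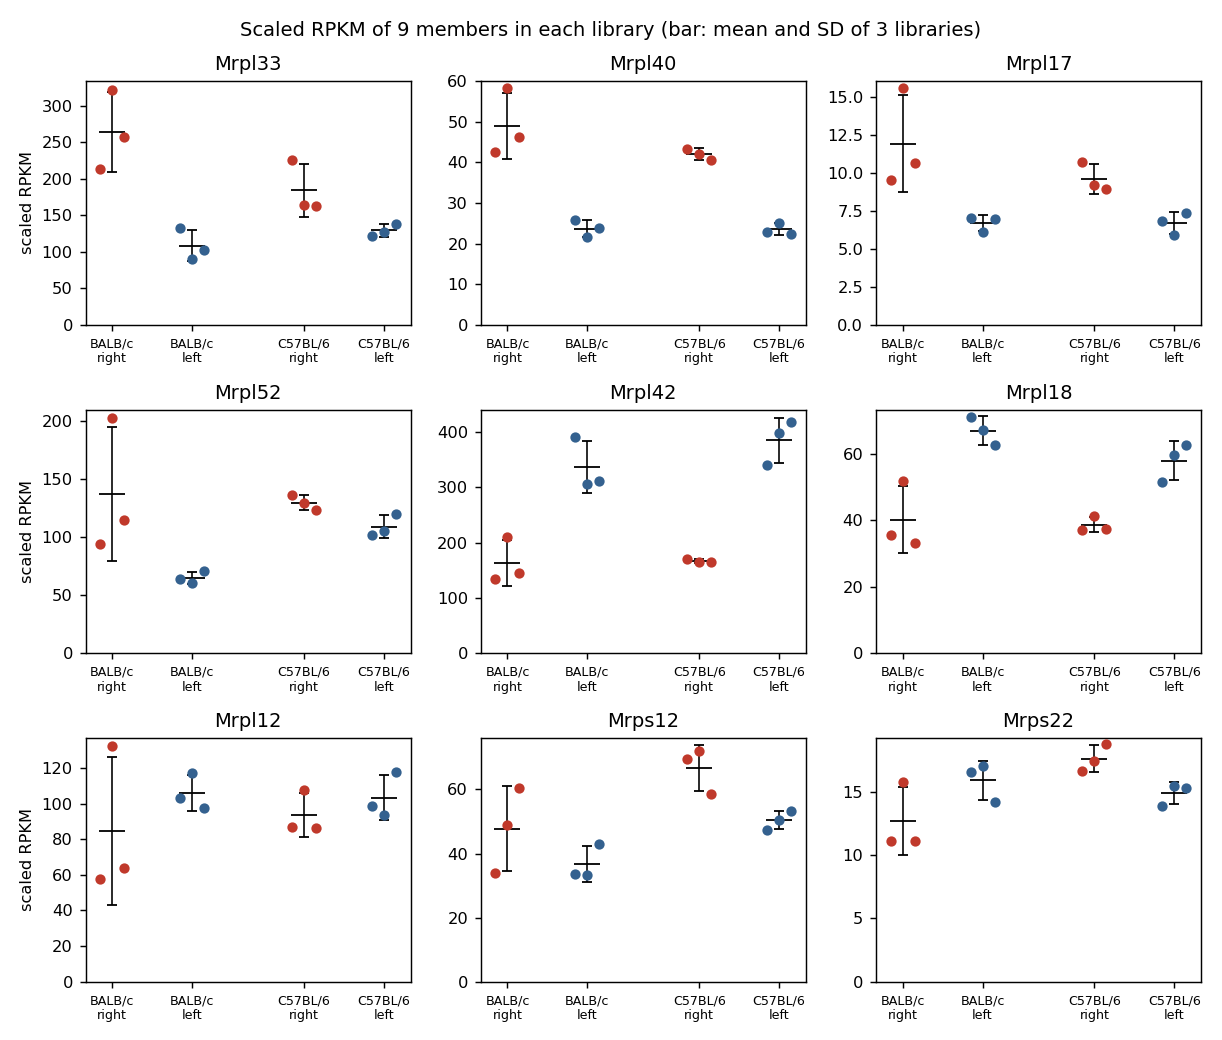
Median-of-ratios scaled RPKM (y axis, starting at 0) of 9 members in each library, with points for libraries and bars for the mean and SD of 3 libraries, right legs in red and left legs in blue. Mrpl33, Mrpl40, Mrpl17 and Mrpl52 have all right points above the left in both strains, Mrpl42 and Mrpl18 have all right points below, and Mrpl12 overlaps in both strains.

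Members with particular roles did not follow one pattern. Mrpl12, the stalk protein that also binds the mitochondrial RNA polymerase (NM_027204, chromosome 11, 120345951 to 120350068, + strand), had 57.8, 132 and 63.6 scaled RPKM in the right legs of BALB/c, against 103, 117 and 97.6 scaled RPKM in the left legs. The C57BL/6 right legs had 86.8, 108 and 86.1 scaled RPKM, against 98.7, 93.5 and 118 scaled RPKM in the left legs. The legs overlapped in both strains, and the second right library of BALB/c was the highest. Without that library Mrpl12 was called lower in BALB/c. The scaled change was -0.43 ± 0.30 (SE, adjusted p = 0.295) in BALB/c and -0.14 ± 0.12 (SE, adjusted p = 0.353) in C57BL/6, while as deposited C57BL/6 had a called change of 0.57.

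Mrps12, the protein of the decoding centre (NM_001360252, chromosome 7, 29524660 to 29526840, - strand), had 33.8, 49.02 and 60.4 scaled RPKM in the right legs of BALB/c, against 33.6, 33.4 and 43.1 scaled RPKM in the left legs. Right legs of C57BL/6 held it at 69.6, 72.00 and 58.5 scaled RPKM, and left legs at 47.5, 50.5 and 53.1 scaled RPKM. BALB/c legs overlapped and C57BL/6 legs did not. The scaled change was 0.35 ± 0.22 (SE, adjusted p = 0.253) in BALB/c and 0.40 ± 0.10 (SE, adjusted p = 0.00966) in C57BL/6. As deposited Mrps12 was called higher in both strains, with changes of 0.86 ± 0.23 (SE, adjusted p = 0.0137) in BALB/c and 1.11 ± 0.10 (SE, adjusted p = 5.9e-05) in C57BL/6. Mrps30 and Mrps18a carry small-subunit names but sit in the large subunit of the mammalian mitochondrial ribosome. Mrps30 had 21.3, 24.00 and 22.4 scaled RPKM in the right legs of BALB/c, against 21.2, 14.9 and 18.5 scaled RPKM in the left legs. Its C57BL/6 values were 22.4, 24.4 and 22.2 scaled RPKM in right legs and 20.01, 22.9 and 22.4 scaled RPKM in left legs. The BALB/c right legs were above the left and the C57BL/6 legs overlapped. Mrps18a had 77.7, 108 and 75.3 scaled RPKM in the right legs of BALB/c, against 74.3, 71.2 and 73.9 scaled RPKM in the left legs. For C57BL/6 the right legs gave 68.9, 60.6 and 54.9 scaled RPKM and the left legs 61.7, 65.1 and 83.96 scaled RPKM. It too had right above left in BALB/c and overlapping legs in C57BL/6. Mrps30 changed by 0.83 ± 0.12 (SE, adjusted p = 9.9e-04) as deposited in BALB/c and 0.78 ± 0.09 (SE, adjusted p = 1.3e-04) in C57BL/6, and Mrps18a by 0.75 ± 0.14 (SE, adjusted p = 0.00278) and 0.53 ± 0.14 (SE, adjusted p = 0.00977). After scaling neither was called in either strain, with Mrps30 at 0.31 and 0.08 and Mrps18a at 0.23 and -0.18 in BALB/c and C57BL/6.

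Mrps36 is now assigned to the 2-oxoglutarate dehydrogenase complex rather than to the ribosome. By its mean in the left legs of C57BL/6 it was among the 3 lowest members. In BALB/c it had 3.42, 4.08 and 3.05 scaled RPKM in the right legs, against 5.62, 8.12 and 6.11 scaled RPKM in the left legs, a change of -0.82 ± 0.17 (SE, adjusted p = 0.00791). Among C57BL/6 libraries it had 2.21, 4.09 and 3.80 scaled RPKM in right legs, against 3.65, 5.35 and 5.71 scaled RPKM in left legs, a change of -0.50 ± 0.23 (SE, adjusted p = 0.106). The legs overlapped in C57BL/6 only. RefSeq lists 3 pseudogenes named after Mrps36, with which it may share reads. The other low members, Mrpl19 and Mrps25, overlap Gcfc2 and Nr2c2 in the annotation. Mrpl19 had 2.05, 3.58 and 2.18 scaled RPKM in the right legs of BALB/c, against 2.96, 4.14 and 2.96 scaled RPKM in the left legs, a change of -0.33 ± 0.22 (SE, adjusted p = 0.259). In C57BL/6 it had 2.86, 3.41 and 3.02 scaled RPKM in the right legs, against 2.75, 3.24 and 3.06 scaled RPKM in the left legs, a change of 0.03 ± 0.10 (SE, adjusted p = 0.808). Its scaled legs overlapped in both strains. As deposited Mrpl19 had a change of 0.11 ± 0.23 (SE, adjusted p = 0.709) in BALB/c and was called higher in C57BL/6, by 0.65 ± 0.10 (SE, adjusted p = 9.1e-04). Mrps25, a mitochondria-specific protein of the small subunit, had 4.49, 5.94 and 4.56 scaled RPKM in the right legs of BALB/c, against 6.78, 5.46 and 5.63 scaled RPKM in the left legs. The C57BL/6 right legs had 4.93, 4.27 and 4.63 scaled RPKM, against 5.40, 5.80 and 6.33 scaled RPKM in the left legs. The legs overlapped in BALB/c, and in C57BL/6 the right legs were lower. Mrps25 had a change of -0.24 ± 0.15 (SE, adjusted p = 0.256) in BALB/c and -0.31 ± 0.09 (SE, adjusted p = 0.0241) in C57BL/6. The C57BL/6 call of Mrps25 was lost without library left 2, left 3, right 2 or right 3 (changes of -0.32 to -0.26, adjusted p = 0.0596 to 0.0764).

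Mrpl30, of bacterial type and second most abundant in the left legs of C57BL/6, showed how the scale set the direction. As deposited it had 153, 232 and 181 RPKM in the right legs of BALB/c, against 142, 137 and 137 RPKM in the left legs. Right legs of C57BL/6 held it at 173, 169 and 155 RPKM, and left legs at 126, 145 and 148 RPKM. The right legs lay above the left in both strains. After scaling, C57BL/6 had 136, 128 and 123 scaled RPKM in right legs, against 162, 186 and 190.3 in left legs, now with every right library below. The C57BL/6 change was 0.25 ± 0.09 (SE, adjusted p = 0.0363) as deposited and -0.47 ± 0.09 (SE, adjusted p = 0.00277) after scaling. The deposited call was lost without library left 1, left 2, right 1 or right 2 (changes of 0.18 to 0.28, adjusted p = 0.0623 to 0.107). The BALB/c change was 0.42 ± 0.17 (SE, adjusted p = 0.0782) as deposited and -0.10 ± 0.23 (SE, adjusted p = 0.737) after scaling.

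In both subunits most members were called higher as deposited, and calls went both ways after scaling. As deposited in BALB/c, 31 of 49 Mrpl genes were called higher and 1 lower, with a median of 0.56, and 19 of 29 Mrps genes were called higher and 0 lower, with a median of 0.66. In C57BL/6 the counts were 45 and 1 of 49 Mrpl genes with a median of 0.65, and 27 and 0 of 29 Mrps genes with a median of 0.70. After scaling, 10 Mrpl genes were called higher and 4 lower in BALB/c (median 0.05), and 3 Mrps genes higher and 3 lower (median 0.16). In C57BL/6 10 Mrpl genes were called higher and 16 lower (median -0.04), and 8 Mrps genes higher and 7 lower (median 0.01). Over all tested genes 42.5% were called higher and 7.67% lower in BALB/c as deposited, and 63.6% and 8.56% in C57BL/6. After scaling the shares were 21.8% and 19% in BALB/c, and 28.2% and 26.4% in C57BL/6. The Mrpl genes had 20.4% called higher and 8.16% lower in BALB/c after scaling, and 20.4% and 32.7% in C57BL/6. The Mrps genes had 10.3% and 10.3% in BALB/c, and 27.6% and 24.1% in C57BL/6. In the second right library of BALB/c, the scaled median over the left-leg mean was 0.42 for Mrpl genes and 0.47 for Mrps genes. In the other right libraries it was -0.18 and -0.13 for Mrpl genes, and -0.11 and 0.04 for Mrps genes. The subunit counts were not redone without that second library. Members are not replicates, so no test was made between the subunits.

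Within the large subunit as known from structures, which adds Mrps30 and Mrps18a, proteins were split into those of bacterial type and mitochondria-specific ones. After scaling in C57BL/6, 6 of 21 mitochondria-specific large-subunit proteins were called higher and 4 lower, with a median of 0.08, against 4 higher and 12 lower of 30 of bacterial type, with a median of -0.13. In BALB/c the counts were 6 higher and 1 lower of 21, with a median of 0.23, against 4 higher and 3 lower of 30, with a median of 0.03. In the small subunit, 3 of 10 mitochondria-specific proteins were called higher and 2 lower in C57BL/6 (median 0.01), against 5 higher and 5 lower of 16 of bacterial type (median -0.08). In BALB/c the small-subunit counts were 1 higher and 1 lower of 10 (median 0.03), against 2 higher and 1 lower of 16 (median 0.25), so the order of the medians there was opposite to that in the large subunit. Over all tested genes 28.2% were called higher and 26.4% lower in C57BL/6, and 21.8% and 19% in BALB/c. The differences between these classes were not tested.

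Beside other gene groups, the members' median change lay near that of all tested genes. The 85 tested nuclear subunits of oxidative phosphorylation, the partners of the proteins that the mitochondrial ribosome makes, had scaled medians of -0.47 in BALB/c and -0.41 in C57BL/6. Of these, 1 was called higher and 26 lower in BALB/c, and 3 higher and 60 lower in C57BL/6. The 85 tested cytosolic ribosomal proteins had scaled medians of 1.28 in BALB/c and 0.77 in C57BL/6, with 76 called higher in each strain and 1 and 2 called lower. As deposited the calls of the oxidative phosphorylation subunits turned, with 10 higher and 8 lower in BALB/c and 42 higher and 1 lower in C57BL/6. The oxidative phosphorylation medians were 0.05 and 0.28, and those of cytosolic ribosomal proteins 1.80 and 1.48, in BALB/c and C57BL/6 as deposited. On both scales the members' median lay between those 2 lists in both strains. Differences between the lists were not tested. The members also varied less than other genes in their range of level, with SDs of scaled change of 0.45 against 1.01 in BALB/c and 0.34 against 1.07 in C57BL/6. This was not particular to them. The oxidative phosphorylation subunits had SDs of 0.51 and 0.34 in BALB/c and C57BL/6, and the cytosolic ribosomal proteins 0.63 and 0.61.

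**Figure D4:**
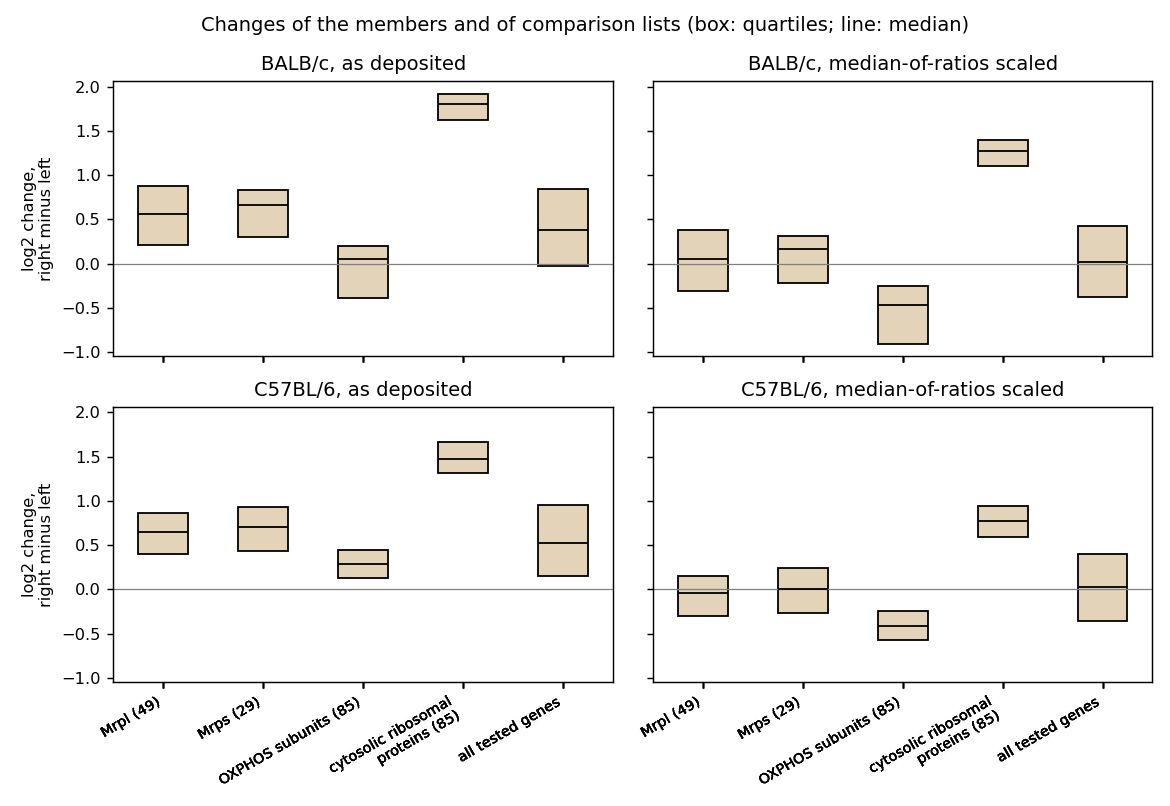
Median (line) and quartiles (box) of the log2 change, right minus left (y axis, log2 units), over the Mrpl genes, the Mrps genes, nuclear oxidative phosphorylation (OXPHOS) subunits, cytosolic ribosomal proteins and all tested genes, in BALB/c (top) and C57BL/6 (bottom), as deposited (left) and scaled (right). Both subunits of the mitochondrial ribosome lie between the OXPHOS subunits and the cytosolic ribosomal proteins in every panel.

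Direct comparison of the strains found little. The change in BALB/c minus that in C57BL/6 was called lower for 1 member as deposited and higher for 0. Among all tested genes these shares were 4.33% and 1.76%. Of the 78 members, 10 had an unadjusted p under 0.05 (limma), beside 3443 of 14165 tested genes. After scaling limma called 0 members in either direction, beside 3.71% of tested genes called higher and 3.49% lower. An unadjusted p under 0.05 was found for 9 members, beside 3646 of 14165 tested genes. The voom fit of recovered reads also called 0. The called member was Mrps22, a mitochondria-specific small-subunit protein whose human gene is mutated in a mitochondrial disease (NM_025485, chromosome 9, 98489150 to 98502098, - strand). It had 13.9, 17.4 and 14.03 RPKM in the right legs of BALB/c, against 12.6, 15.5 and 11.9 RPKM in the left legs as deposited. Its C57BL/6 values were 21.2, 22.99 and 23.7 RPKM in right legs and 10.8, 12.04 and 11.9 RPKM in left legs. BALB/c legs overlapped and C57BL/6 legs did not. The change was 0.17 ± 0.15 (SE, adjusted p = 0.378) in BALB/c and 0.93 ± 0.08 (SE, adjusted p = 3.1e-05) in C57BL/6, a difference of -0.76 ± 0.17 (SE, adjusted p = 0.0249). The call was lost without library C57BL/6 left 1, C57BL/6 left 2, C57BL/6 left 3, C57BL/6 right 2, C57BL/6 right 3 or BALB/c right 3 (changes of -0.79 to -0.71, adjusted p = 0.0537 to 0.0717). After scaling the difference was -0.57 ± 0.19 (SE, adjusted p = 0.0893). Without the second right library of BALB/c, Mrps22 was called lower in that strain after scaling.

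Across the 78 members, the scaled change in BALB/c followed that in C57BL/6, with Pearson's r = 0.77 and Spearman's rho = 0.73, and 58 members had the same sign. Each strain had its own left and right libraries, and the points share library and transcript length, so these are descriptions without a p. In BALB/c the median scaled change was 0.16 for the 39 members with shorter transcripts and -0.05 for the 39 with longer ones. In C57BL/6 it was -0.02 and -0.06. The part of transcript length in the changes was not tested. No member was called in opposite directions in the 2 strains on either scale. As deposited, 49 members were called higher in both strains and 23 higher in C57BL/6 but not called in BALB/c, beside 40.7% and 23.6% of the genes tested in both strains. Mrps21 was the one called higher in BALB/c and not in C57BL/6, and 4 (Mrpl18, Mrpl34, Mrpl51 and Mrps36) were called in neither.

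**Figure D5:**
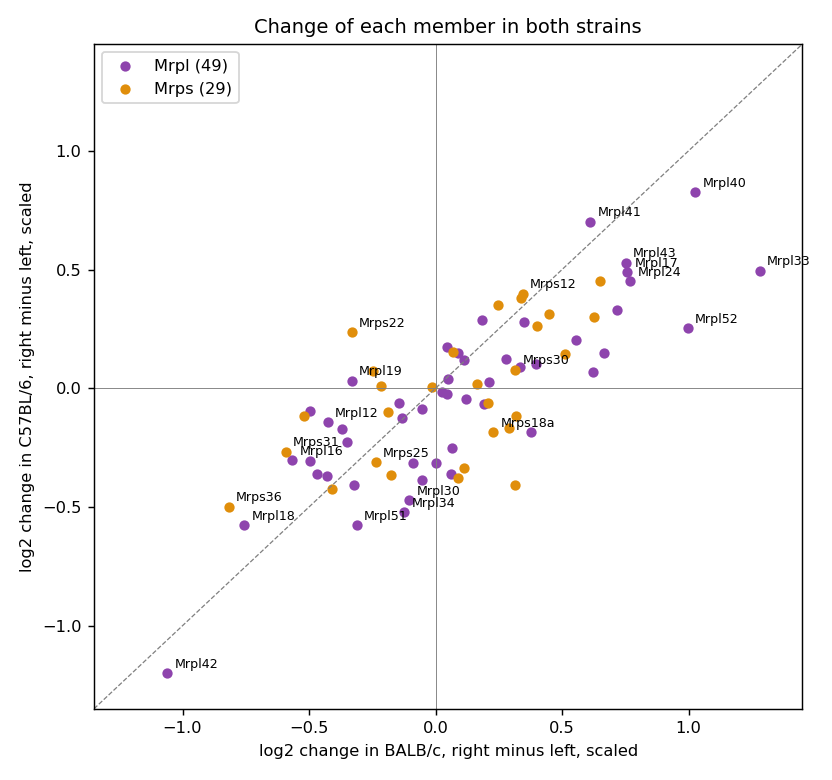
Scaled log2 change, right minus left, of each member in BALB/c (x axis) and C57BL/6 (y axis), in log2 units, with Mrpl genes in purple, Mrps genes in orange and the dashed line marking equal change. Mrpl42 and Mrpl18 sit low in both strains, Mrpl40 and Mrpl33 high in both, and Mrps22 lies above zero in C57BL/6 and below it in BALB/c.

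Nuclear genes for mitochondrial proteins are known targets of the factors NRF-1 and GABP, so promoters were read for short motifs of these factors and of YY1. RefSeq (GRCm38.p6) supplied promoters, 250 bases before to 50 after the start, for 69 of 78 members. The motifs, searched on both strands, were GCGCANGCG for NRF-1, CCGGAAG for GABP, AANATGGC for YY1 and CACGTG for an E-box, and each was counted on its own. The NRF-1 motif was in 16 of 69 members' promoters (23.2%), against 1901 of 27025 genes in the table (7.03%). The GABP motif was in 26 of 69 (37.7%), against 2683 of 27025 (9.93%), and the YY1 motif in 21 of 69 (30.4%), against 1881 of 27025 (6.96%). The E-box was in 5 of 69 (7.25%), against 2187 of 27025 (8.09%). The 27025 genes were not limited to those that passed the filter on low values here, whereas all 78 members passed it. The promoters of 5 members are shown, for 2 members that rose, 1 not called after scaling and 2 that fell, each 5′ to 3′ on the gene's strand, with NRF-1, GABP and YY1 matches in capitals:
Mrpl33, chr5:31613701-31614000, + strand: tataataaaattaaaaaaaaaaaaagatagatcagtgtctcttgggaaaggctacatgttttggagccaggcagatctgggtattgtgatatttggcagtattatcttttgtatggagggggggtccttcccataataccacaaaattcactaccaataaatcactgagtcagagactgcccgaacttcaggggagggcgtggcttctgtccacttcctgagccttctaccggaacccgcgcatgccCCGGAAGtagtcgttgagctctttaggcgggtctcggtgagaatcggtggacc
Mrpl17, chr7:105811038-105811337, - strand: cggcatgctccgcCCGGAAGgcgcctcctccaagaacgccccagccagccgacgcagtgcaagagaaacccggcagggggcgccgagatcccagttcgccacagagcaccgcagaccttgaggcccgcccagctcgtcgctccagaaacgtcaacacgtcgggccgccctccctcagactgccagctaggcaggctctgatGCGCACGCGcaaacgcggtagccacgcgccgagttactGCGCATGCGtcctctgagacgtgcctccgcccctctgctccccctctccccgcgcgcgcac
Mrpl12, chr11:120484387-120484686, + strand: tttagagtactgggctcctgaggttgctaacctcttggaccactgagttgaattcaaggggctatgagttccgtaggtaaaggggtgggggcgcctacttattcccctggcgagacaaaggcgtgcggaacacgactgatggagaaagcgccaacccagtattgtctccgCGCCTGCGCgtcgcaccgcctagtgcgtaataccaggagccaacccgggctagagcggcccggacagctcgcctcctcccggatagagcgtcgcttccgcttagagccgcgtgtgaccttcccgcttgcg
Mrpl18, chr17:12916042-12916341, - strand: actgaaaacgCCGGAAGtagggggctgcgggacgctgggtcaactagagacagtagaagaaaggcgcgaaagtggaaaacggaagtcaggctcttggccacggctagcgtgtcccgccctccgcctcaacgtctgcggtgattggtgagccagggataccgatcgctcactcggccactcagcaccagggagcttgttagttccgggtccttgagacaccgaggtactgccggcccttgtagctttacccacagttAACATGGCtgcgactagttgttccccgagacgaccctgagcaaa
Mrpl42, chr10:95501900-95502199, - strand: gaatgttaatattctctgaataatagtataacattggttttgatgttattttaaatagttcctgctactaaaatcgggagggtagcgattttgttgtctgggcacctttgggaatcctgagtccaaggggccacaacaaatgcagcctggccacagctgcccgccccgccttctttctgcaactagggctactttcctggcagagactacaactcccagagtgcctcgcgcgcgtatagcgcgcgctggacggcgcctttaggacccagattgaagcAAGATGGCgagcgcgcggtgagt

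The capitals mark 1 GABP match in Mrpl33, 2 NRF-1 matches and 1 GABP match in Mrpl17, 1 NRF-1 match in Mrpl12, 1 GABP and 1 YY1 match in Mrpl18, and 1 YY1 match in Mrpl42. A match is a stretch of letters and not a shown binding site. Members called higher in both strains after scaling had an NRF-1 or GABP match in 5 of 9 promoters, and those called lower in both strains in 2 of 5. No comparison was made between these few promoters. In the listed annotation (mm9), 27 of 78 members (34.6%) had the start of a gene on the opposite strand within 1000 bases upstream or 100 bases downstream of their own start, against 9.95% of all 25094 genes. Mrps11 and Mrpl46 are such a pair, with starts 42 bases apart. Their scaled changes were -0.41 and 0.05 in BALB/c and -0.42 and 0.04 in C57BL/6. Of these 27 members, 1 and its neighbour had opposite calls in BALB/c and 5 in C57BL/6 after scaling, including Mrps12, called higher in C57BL/6, beside its neighbour Sars2, the mitochondrial seryl-tRNA synthetase, called lower. As deposited the changes of Sars2 were 0.0078 in BALB/c and 0.25 in C57BL/6, of the opposite sign to its scaled changes of -0.49 ± 0.13 (SE, adjusted p = 0.0217) and -0.44 ± 0.08 (SE, adjusted p = 0.00188). In the same scaled comparison 1 member and its neighbour were both called higher and 2 both lower in C57BL/6, and 0 in BALB/c in either direction. As deposited 0 had opposite calls in either strain, and 9 in BALB/c and 17 in C57BL/6 were called higher together with their neighbour. Over all tested genes as deposited, 42.5% were called higher and 7.67% lower in BALB/c, and 63.6% and 8.56% in C57BL/6. After scaling the shares were 21.8% and 19% in BALB/c, and 28.2% and 26.4% in C57BL/6. Joint and opposite calls of such pairs were not counted among all genes. The pair of Mrps11 and Mrpl46 enters the 27 from both sides.

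Genes that act with the mitochondrial ribosome were counted from lists, and the examples were chosen after their values were seen. Counts are read beside the shares of all tested genes called, which were 42.5% higher and 7.67% lower in BALB/c and 63.6% and 8.56% in C57BL/6 as deposited, and 21.8% and 19% in BALB/c and 28.2% and 26.4% in C57BL/6 after scaling. Of 14 translation factors, 0 were called higher and 6 lower in BALB/c (median -0.40), and 2 were called higher and 10 lower in C57BL/6 (median -0.35), after scaling. As deposited, 4 were called higher and 1 lower in BALB/c and 11 were called higher and 0 lower in C57BL/6. Taco1, the translational activator of a cytochrome oxidase subunit, had a scaled change of -1.57 ± 0.13 (SE, adjusted p = 1.4e-04) in BALB/c and -0.74 ± 0.13 (SE, adjusted p = 0.00214) in C57BL/6. Gfm1, elongation factor G, had -1.01 ± 0.14 (SE, adjusted p = 0.00144) in BALB/c and -0.36 ± 0.09 (SE, adjusted p = 0.00999) in C57BL/6. Of 25 genes of assembly and ribosomal RNA processing, 4 were called higher and 3 lower in BALB/c and 5 were called higher and 9 lower in C57BL/6 after scaling. As deposited, 9 were called higher and 0 lower in BALB/c and 18 were called higher and 0 lower in C57BL/6. Tfb1m, the ribosomal RNA methyltransferase, rose by 0.44 ± 0.12 (SE, adjusted p = 0.025) and 0.70 ± 0.12 (SE, adjusted p = 0.00216) in BALB/c and C57BL/6 after scaling. It was also called higher in both as deposited (0.92 and 1.36). Fastkd2, an RNA-binding assembly factor, had scaled changes of -0.60 ± 0.15 (SE, adjusted p = 0.0154) and -0.77 ± 0.10 (SE, adjusted p = 4.2e-04) in BALB/c and C57BL/6. As deposited Fastkd2 was called in neither strain (-0.13 and -0.12).

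Of 22 aminoacyl-tRNA synthetases and related genes, 3 were called higher and 8 lower in BALB/c and 5 were called higher and 6 lower in C57BL/6 after scaling. As deposited, 6 were called higher and 1 lower in BALB/c and 18 were called higher and 0 lower in C57BL/6. Those called higher in both strains after scaling were Gars, Kars and Gatb, of which Gars and Kars also encode the cytosolic enzymes. Of 17 genes of mitochondrial transcription and RNA handling, 1 was called higher and 8 lower in BALB/c and 3 were called higher and 6 lower in C57BL/6 after scaling. As deposited, 5 were called higher and 2 lower in BALB/c and 15 were called higher and 0 lower in C57BL/6. Grsf1, an RNA granule protein, had scaled changes of -0.89 ± 0.14 (SE, adjusted p = 0.00189) in BALB/c and -0.60 ± 0.06 (SE, adjusted p = 1.2e-04) in C57BL/6. Of the 12 regulators, 1 was called higher and 7 lower in BALB/c and 1 was called higher and 4 lower in C57BL/6 after scaling. As deposited, 4 were called higher and 4 lower in BALB/c and 8 were called higher and 2 lower in C57BL/6. Ppargc1a, which encodes the coactivator PGC-1alpha, had 1.41, 0.807 and 1.27 RPKM in the right legs of BALB/c, against 2.18, 3.35 and 2.48 RPKM in the left legs, and 1.47, 2.05 and 1.80 RPKM in the right legs of C57BL/6, against 2.62, 2.17 and 2.10 RPKM in the left legs. Its scaled change was -1.34 ± 0.16 (SE, adjusted p = 7.2e-04) in BALB/c and -0.88 ± 0.12 (SE, adjusted p = 7.3e-04) in C57BL/6. Nrf1, encoding NRF-1, had scaled changes of 0.18 ± 0.14 (SE, adjusted p = 0.343) in BALB/c and -0.23 ± 0.13 (SE, adjusted p = 0.17) in C57BL/6. As deposited Nrf1 was called higher in both strains, by 0.64 ± 0.17 (SE, adjusted p = 0.0168) in BALB/c and 0.38 ± 0.13 (SE, adjusted p = 0.0301) in C57BL/6. Gabpa, encoding the DNA-binding GABP subunit, had scaled changes of -0.54 ± 0.14 (SE, adjusted p = 0.0158) and -0.14 ± 0.09 (SE, adjusted p = 0.223) in BALB/c and C57BL/6. Nuclear-encoded ribosome proteins that do not carry an Mrp symbol gave 2 higher and 1 lower in BALB/c and 1 higher and 2 lower in C57BL/6 of 5 after scaling, with Aurkaip1 higher in both strains, at 0.63 ± 0.20 (SE, adjusted p = 0.0372) and 0.39 ± 0.09 (SE, adjusted p = 0.00609), and Ptcd3 lower in both, at -0.90 ± 0.12 (SE, adjusted p = 0.00118) and -0.25 ± 0.09 (SE, adjusted p = 0.0471). As deposited, 3 were higher and 1 lower in BALB/c and 5 higher and 0 lower in C57BL/6. Among the genes named from these lists, the deposited and scaled changes in C57BL/6 had opposite signs for Gfm1, Grsf1, Ptcd3, Gabpa and Nrf1, with deposited changes of 0.35, 0.11, 0.44, 0.51 and 0.38. Taco1, Ppargc1a and Grsf1 were called lower in BALB/c as deposited (-1.07, -0.93 and -0.37). They were not called in C57BL/6 (-0.04, -0.30 and 0.11). Gfm1 and Gabpa were not called in BALB/c as deposited (-0.49 and -0.07), and were called higher in C57BL/6. Ptcd3 was called lower in BALB/c as deposited (-0.40) and higher in C57BL/6.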

How the data were processed

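Gastrocnemius poly(A) RNA-seq libraries (12 in all) were grouped by strain and leg from their labels. The deposited RPKM values, in 1 table per strain normalized separately, were made by the authors with HOMER analyzeRepeats (mm9 gene models, exon counts on both strands, genes condensed), per the file headers. The submitters' processing notes also name HISAT2, DESeq2, GRCm38 and mm10 without versions or roles, and which build was aligned to is not given in these sources. Whole reads were recovered for 99.7% to 99.9% of values per library, within 0.1 read. These reads were used for the voom alternative, and 14826934 to 17323385 reads per library fell in listed genes.

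Tested genes averaged 0.1 RPKM or more and were fitted as log2(RPKM + 0.5) with limma 3.58.1 (R 4.3.3; empirical Bayes with trend, two-sided, Benjamini-Hochberg over all tested genes, called under 0.05), so fold changes of low genes are understated. Right was compared with left within strain, and the changes were compared between strains in 1 fit over 12 libraries, across separately normalized tables. Both the deposited values and values divided by median-of-ratios factors were fitted. The fit was tested on simulated data in which few genes changed and the median gene did not shift between legs. That test therefore cannot tell which scale is right here. The members and lists were chosen with earlier results of these data known. Members named with library values were the 5 largest scaled rises and falls per strain, the 3 highest and 3 lowest in left legs of C57BL/6, any called between strains, and Mrpl12, Mrps12, Mrps30, Mrps18a and Mrps36. Alternatives were other pseudocounts, filters and scalings, a replicate block, voom, and leaving out libraries. Python 3.11.15, pandas 2.3.3 and numpy 2.4.6 were used.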

Additional observations from a re-analysis of the deposited data

Results flagged for a closer look

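Mrps22 was singled out because its change between legs differed between strains by a test of the difference itself. The change in BALB/c minus that in C57BL/6 was -0.76 on the log2 scale as deposited (limma, adjusted p = 0.0249). Over 23 alternatives the difference ran from -0.97 to -0.57, was negative in all 23 and was called in 15, with adjusted p of 0.00689 to 0.0893. It was called in 6 of 12 fits that left out 1 library. After median-of-ratios scaling it was not called.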

How the results depend on the processing

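The direction of many members depended on the scaling. For alternatives other than median-of-ratios scaling, including those that left out libraries, the shares of all tested genes called were not counted. In C57BL/6 as deposited, 72 members were called higher and 1 lower, against 18 and 23 after median-of-ratios scaling, 22 and 17 after quantile normalization and 17 and 21 with limma-voom on recovered reads. In BALB/c the deposited counts of 50 and 1 became 13 and 7 after median-of-ratios scaling, 12 and 12 after quantile normalization and 14 and 7 with voom, and 30 were called higher at a common sum of RPKM. The difference between strains, with 1 member called lower as deposited, had 0 after median-of-ratios scaling, 0 with voom and 5 at a common sum. Without both BALB/c libraries numbered 2, an alternative chosen after seeing the data, it had 4 as deposited and 1 after scaling, and 16 members were called lower in BALB/c after scaling. The log2 changes of 10 named members in C57BL/6 changed sign against the deposited value. In the order median-of-ratios, quantile and voom, Mrpl12 had -0.14, -0.043 and -0.13. Mrpl16 had -0.30, -0.200 and -0.29. Mrpl18 had -0.58, -0.465 and -0.57. Mrpl30 had -0.47, -0.415 and -0.46. Mrpl34 had -0.52, -0.422 and -0.51. Mrpl51 had -0.58, -0.457 and -0.57. Mrps18a had -0.18, -0.097 and -0.17. Mrps25 had -0.31, -0.329 and -0.33. Mrps31 had -0.27, -0.210 and -0.26. Mrpl19 had -0.0048 after quantile normalization. A sign change between values of which neither was called was not counted.

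Leaving out 1 library at a time, BALB/c had 36 to 53 members called higher and 0 to 2 lower as deposited, and 5 to 18 higher and 3 to 17 lower after scaling. C57BL/6 had 66 to 74 higher and 1 lower as deposited, and 10 to 18 higher and 15 to 21 lower after scaling. The strain difference had 0 to 1 higher and 0 to 5 lower as deposited, and 0 to 1 in each direction after scaling. In every such fit after scaling, BALB/c kept 5 higher calls (Mrpl17, Mrpl33, Mrpl40, Mrpl43 and Mrpl57) and 3 lower (Mrpl42, Mrps31 and Mrps36), and C57BL/6 kept 10 and 14.

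Replicate numbers are shared between legs. Deviations of same-numbered right and left libraries correlated at 0.007, 0.055 and 0.241 in BALB/c and 0.183, 0.102 and 0.006 in C57BL/6, all above 0. For different numbers the values ran from -0.184 to 0.115 in BALB/c and from -0.166 to 0.1 in C57BL/6. In the headers, the last BALB/c library of both legs carries the same number, which differs from its replicate number. The labels do not say whether the numbers pair legs, and neither these values nor the headers settle it. The main fits used no pairs. With the replicate block, BALB/c had 53 members called higher and 1 lower as deposited and 9 and 7 after scaling. C57BL/6 had 70 and 1, and 15 and 20. The strain difference had 0 and 1, and 0 and 0. The lowest read count of a member in a library was 38. The cause of these shifts was not tested.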
